A study of Mus musculus with 45 samples.

Results

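The 9 genes followed here belong to antigen presentation by major histocompatibility complex (MHC) class II, and they were measured in 45 RNA sequencing libraries of mouse tissue. They were chosen by name and are Cd74, H2-Aa, H2-Ab1, H2-Eb1, H2-DMa, H2-DMb1, H2-Oa, Ciita and Ctss, all of which were present among the 55367 gene symbols counted. The libraries came from female Balb/c mice carrying a porous polycaprolactone scaffold under the skin, which served as an engineered niche for circulating cells. Mice either had no tumor (control) or received an orthotopic inoculation of 67NR, 4T07 or 4T1 cells, triple negative breast cancer lines maintained in culture, and tissues were taken on day 14. The study treats 67NR as nonmetastatic, 4T07 as invasive but nonmetastatic and 4T1 as metastatic. Scaffolds, lungs and spleens were sampled in all 4 conditions and primary tumors in the 3 inoculated ones, which gives 15 groups of 3 libraries. Control mice also carried the scaffold, so every comparison with control concerns the tumor and not the implant. Each condition rests on a single cell line, and tissues are not linked to individual mice in the labels.

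MHC class II molecules display peptides from the endosomal pathway to CD4+ T cells. H2-Aa and H2-Ab1 encode the alpha and beta chains of I-A, and H2-Eb1 encodes the beta chain of I-E. Cd74 encodes the invariant chain, which holds the new molecule in the endoplasmic reticulum and escorts it to the endosome, where cathepsin S, the product of Ctss, trims it down. H2-DMa and H2-DMb1 encode subunits of H2-DM, which removes the remaining invariant chain fragment and loads peptide, and H2-Oa encodes a subunit of H2-O, which restrains H2-DM mainly in B cells. Ciita encodes the transactivator that governs class II transcription, is active in B cells and dendritic cells, and is induced by interferon gamma in many other cells.

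Class II promoters share short elements bound by RFX and NF-Y, and the transactivator is recruited to them. RefSeq promoter sequence (GRCm38.p6) was found for 6 of the 9 genes (H2-Aa, H2-Eb1, H2-DMa, H2-DMb1, H2-Oa and Ctss). The 4 class II promoters that held a Y box are shown from base -110 to base -31 before the transcription start, and that of Ctss from base -60 to base -1, so that the class II elements can be set beside a promoter of the pathway that holds no Y box. Capitals mark the Y box (TGATTGG), the X box core (AACNGATG) or, in Ctss, a pair of GAAA repeats with 2 bases of any kind between them, as bound by interferon regulatory factors.
H2-Aa, chr17:34287854-34287933, minus strand: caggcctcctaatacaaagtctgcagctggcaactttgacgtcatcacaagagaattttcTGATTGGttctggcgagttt
H2-Eb1, chr17:34305757-34305836, plus strand: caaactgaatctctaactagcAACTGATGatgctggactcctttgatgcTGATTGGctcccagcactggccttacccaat
H2-DMb1, chr17:34153081-34153160, plus strand: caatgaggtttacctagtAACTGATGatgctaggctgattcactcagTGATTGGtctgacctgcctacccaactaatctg
H2-Oa, chr17:34092269-34092348, plus strand: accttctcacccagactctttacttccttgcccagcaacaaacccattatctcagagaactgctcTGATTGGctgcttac
Ctss, chr3:95526726-95526785, plus strand: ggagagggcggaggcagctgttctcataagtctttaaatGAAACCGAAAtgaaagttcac

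The Y box began at base -50 in H2-Aa, -61 in H2-Eb1, -63 in H2-DMb1 and -45 in H2-Oa, each time on the strand of the gene. The X box core stood upstream of it in H2-Eb1 (base -89) and H2-DMb1 (base -92). Neither of the 2 H2-DMa start sites listed had any of the 3 motifs within its 300 bases, and Ctss held the GAAA pair at base -21 and an X box core at base -207 but no Y box. Searched on both strands, the Y box was present in 7.82% of 32851 promoters of that length, the X box core in 2.32% and the GAAA pair in 3.44%, and no match overlapped another. A match describes letters and is not evidence of binding.

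Library totals ranged from 3491888 to 8175380 counts, and a level of 3 counts corresponded to 0.367 to 0.859 CPM (a count divided by its library's total and multiplied by 1e+06). Levels are given as CPM, and the libraries were prepared from the 3′ ends of transcripts, so levels were compared within a gene and not between genes. The tissues carried their own markers: the summed level of 6 alveolar type 2 genes was 3230 to 25100 CPM in lungs and 255 CPM at most elsewhere, and 8 macrophage genes summed to 3180 to 4050 CPM in scaffolds, 1940 to 3150 CPM in tumors, 881 to 2400 CPM in spleens and 461 to 1020 CPM in lungs. The 6 epithelial genes summed to 988 to 1100 CPM in 4T1 tumors and only 18.3 to 30.2 CPM in 67NR tumors. Because whole tissue was sequenced, fewer cells of a type and less RNA per cell cannot be told apart in any value below.

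In mice without a tumor, the spleen was the class II tissue. Cd74 stood at 338, 641 and 853 CPM in control spleens, at 135, 110 and 178 CPM in control lungs and at 120, 85.7 and 101 CPM in control scaffolds. H2-Ab1 was at 1240, 1530 and 1320 CPM in spleens and between 202 and 282 CPM in every control lung and scaffold. The spleen libraries of both genes did not overlap those of the other tissues. A gene was called when its adjusted p was under 0.10 (0.05 in tumors) and its fold change over 2, by edgeR's quasi-likelihood test over all genes of the tissue. By that rule 7 of the 9 genes were lower in control lung than in control spleen, where 19.7% of all genes were called lower, and the exceptions were H2-DMb1 and Ctss.

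Between control scaffold and control spleen, 7 of the 9 genes were lower in scaffold (17.5% of all genes) and 1 was higher (16.9% of all genes). Setting aside H2-Oa, which had 1, 0 and 0 counts in control scaffolds, the transactivator Ciita was furthest down, with 8.60, 11.1 and 11.6 CPM in scaffolds against 136, 142 and 112 CPM in spleens, a log2 fold change of -3.46 ± 0.18 (SE; adjusted p = 9.08e-10). Ctss went the other way. It was at 2940, 3100 and 3010 CPM in control scaffolds, at 525, 473 and 353 CPM in lungs and at 761, 608 and 528 CPM in spleens. The scaffold libraries lay far above both, with log2 fold changes of 2.43 ± 0.22 against spleen (adjusted p = 3.48e-07) and 2.96 ± 0.22 against lung (adjusted p = 4.72e-08). Against control lung, 1 gene was higher in the control scaffold (Ctss; 14.7% of all genes) and 1 was lower (Ciita, log2 fold change -1.08 ± 0.18, adjusted p = 0.000144; 17.9% of all genes). The other endosomal proteases moved with Ctss: of 10 endosomal processing genes, 7 were called higher in scaffold than in lung and 0 lower, among them Ctsb (4550 against 294 CPM), Ctsl (5100 against 354 CPM) and Ctsd (3490 against 458 CPM). Macrophages are rich in these proteases, and 7 of 8 macrophage markers were also called higher in scaffold than in lung. The part of macrophage content in the level of Ctss was not tested.

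**Figure D1:**
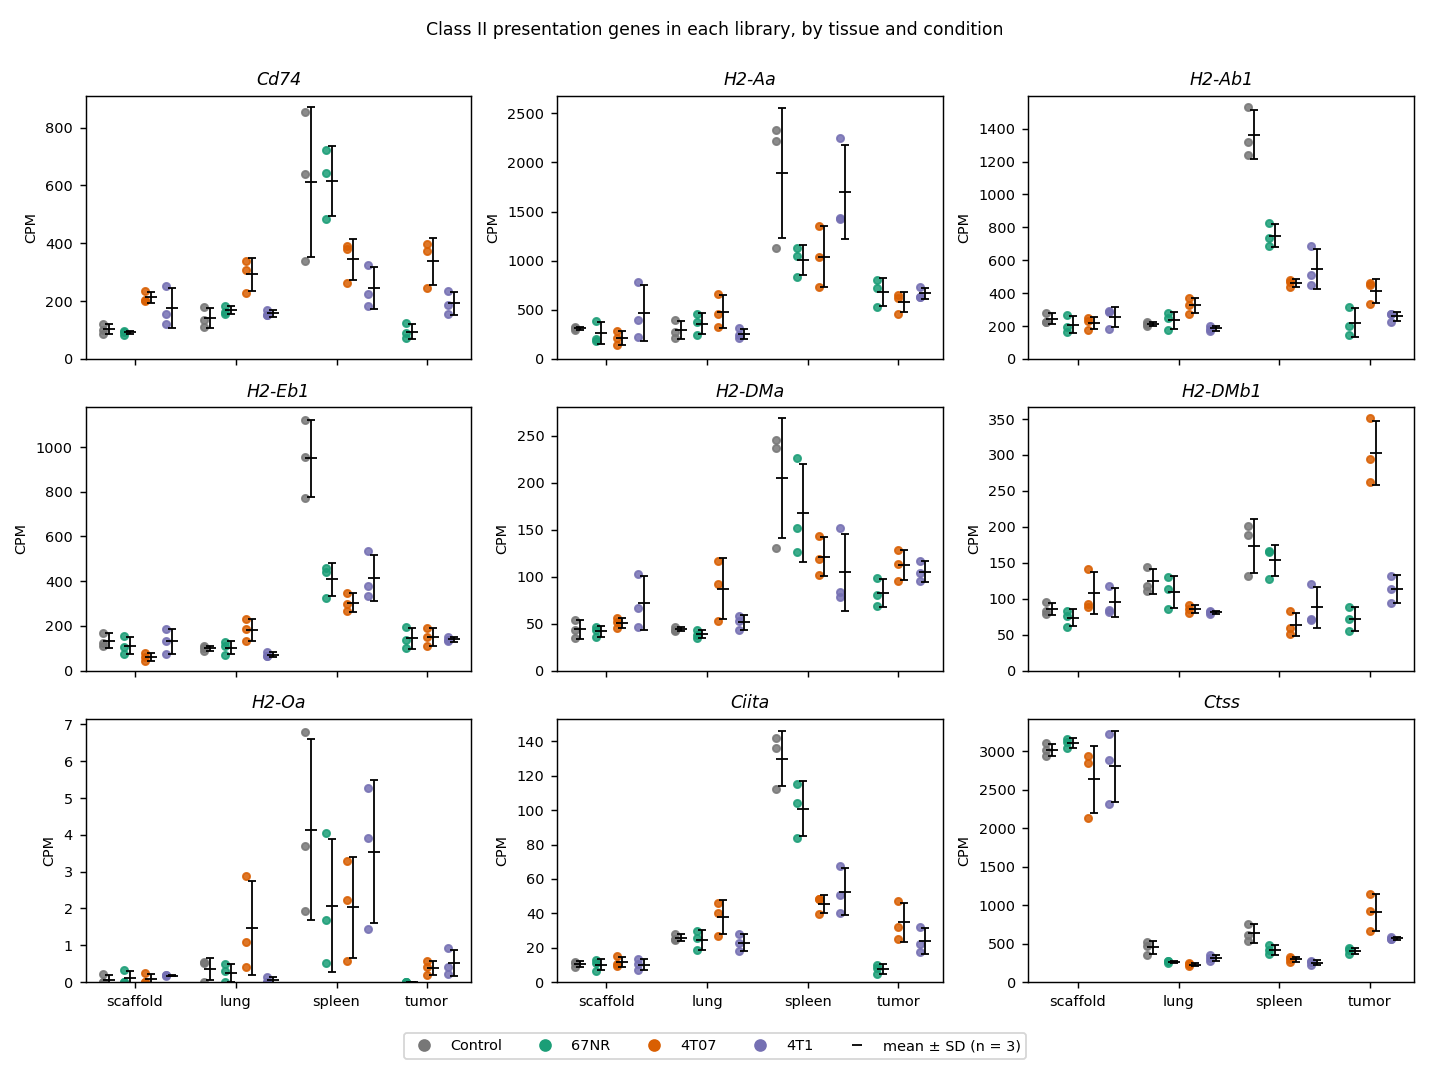
CPM of each of the 9 genes (vertical axis, linear, separate scale for each gene) in the 45 libraries, placed by tissue and coloured by condition. Points are libraries and the black marks show the mean ± SD of 3; Ctss lies between 2130 and 3220 CPM in every scaffold and at 1140 CPM or less in every other library, whereas H2-DMb1 is highest in the 4T07 tumors (263 to 351 CPM).

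Across the 15 groups, the mean level of Cd74 ran from 616 ± 121 CPM (SD, n = 3) in 67NR spleens to 91.5 ± 6.48 CPM in 67NR scaffolds, and each neighbouring pair in that order overlapped. H2-Ab1 and H2-Eb1 were highest in control spleens, at 1360 ± 145 and 951 ± 176 CPM, and no library of any other group reached those 3. The spleen groups took the first 4 places for H2-Aa, H2-Ab1 and H2-Eb1 alike, while the lowest places were held by 4T07 scaffolds for H2-Aa (213 ± 74.2 CPM) and H2-Eb1 (61.0 ± 19.2 CPM) and by 4T1 lungs for H2-Ab1 (186 ± 17.5 CPM). H2-DMa ran from 205 ± 64.3 CPM in control spleens to 38.5 ± 4.30 CPM in 67NR lungs. Its partner H2-DMb1 had a different order, with 4T07 tumors first at 303 ± 44.8 CPM, clear of all others, and 4T07 spleens last at 64.0 ± 16.6 CPM. Ciita was highest in control and 67NR spleens (130 ± 15.5 and 101 ± 16.1 CPM) and lowest in 67NR tumors (7.52 ± 2.76 CPM). For Ctss the 4 scaffold groups came first, followed after a gap by 4T07 tumors at 906 CPM and, at the other end, 4T07 lungs at 228 ± 17.4 CPM.

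In lungs, Cd74 and H2-DMa were higher in 4T07 mice than in controls, while H2-DMb1 and Ctss were not. Cd74 was at 340, 308 and 228 CPM in 4T07 lungs and at 135, 110 and 178 CPM in controls. H2-DMa was at 117, 92.3 and 52.5 CPM against 41.7, 43.6 and 46 CPM. In both genes every 4T07 library exceeded every control library, and library 27 was the lowest of the 3. Cd74 rose with a log2 fold change of 1.11 ± 0.17 (adjusted p = 1.63e-05) and H2-DMa with 1.06 ± 0.21 (adjusted p = 0.000269). Together with H2-Oa, 3 of the 9 genes were called higher and 0 lower, beside 15.3% and 13.7% of all genes. The call of Cd74 was lost by the fold minimum without control library 5 (0.97), and that of H2-DMa without 4T07 library 25 (0.83).

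The I-A and I-E chains were higher by less than the fold minimum in 4T07 lungs. H2-Eb1 stood at 184, 232 and 132 CPM against 101, 87.5 and 109 CPM (log2 fold change 0.95 ± 0.21, adjusted p = 0.000936), and H2-Ab1 at 330, 370 and 276 CPM against 202, 222 and 212 CPM (0.68 ± 0.17, adjusted p = 0.00203). Neither overlapped its controls. H2-Aa (0.76 ± 0.26) and Ciita (0.62 ± 0.21) had adjusted p of 0.0204 and 0.0216 and did overlap. H2-DMb1 and Ctss went down instead: H2-DMb1 was at 80.4, 91.5 and 85.3 CPM against 144, 117 and 111 CPM (-0.47 ± 0.16, adjusted p = 0.0219), and Ctss was at 210, 229 and 245 CPM against 525, 473 and 353 CPM (-0.92 ± 0.16, adjusted p = 7.47e-05). On adjusted p alone, then, all 9 genes passed, 7 higher and 2 lower, beside 25.2% and 25% of all genes. The median log2 fold change of the 9 genes was 0.76 and that of all genes tested -0.009.

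H2-Oa was near the limit of detection in lungs. Its counts were 2, 14 and 5 in 4T07 lungs and 3, 3 and 0 in control lungs, and the libraries overlapped. The pooled level was 4.31 times that of controls, with a 95% interval of 1.68 to 13.1 (exact, from the counts, covering counting error only). The call rested on library 26: without it the adjusted p was 0.408, and by DESeq2 it was 0.11. The other chain of H2-O, H2-Ob, was measured far more deeply and was at 56.3 CPM in 4T07 lungs and 21.2 CPM in controls (log2 fold change 1.47 ± 0.17, adjusted p = 3.83e-07). Of the 4 class II chain genes beyond the 9 (H2-Ea, H2-Eb2, H2-DMb2 and H2-Ob), 2 rose, H2-Ob and H2-DMb2, the second at 64.5 against 29.0 CPM. H2-DMb2 and H2-DMb1 are neighbouring, near-identical copies whose reads the counting may have divided, so their opposite directions in 4T07 lungs are uncertain.

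Against 67NR lungs, 3 of the 9 genes were called higher in 4T07 lungs (14.4% of all genes) and 0 lower (15.3%). Setting aside H2-Oa for its few counts, H2-DMa led, with 34.3, 42.9 and 38.3 CPM in 67NR lungs and a log2 fold change of 1.345 ± 0.21 (adjusted p = 2.29e-05), followed by H2-Eb1 (1.015 ± 0.21, adjusted p = 0.000495) and H2-Oa, whose counts were 0, 3 and 2 in 67NR lungs. H2-Eb1 was just past the fold minimum and lost its call without 67NR library 13 (0.85) or 4T07 library 26 (0.80), and without library 26 H2-DMa alone was called. Against 4T07 lungs, 2 genes were lower in 4T1 lungs (11.9% of all genes) and 0 higher (11.6%). H2-Eb1 was at 83.1, 65.7 and 65.8 CPM in 4T1 lungs, all under the 4T07 range, and fell by 1.40 ± 0.21 on the log2 scale (adjusted p = 2.16e-05). H2-Oa had 0, 1 and 0 counts in 4T1 lungs, a pooled ratio of 0.0338 (95% interval 0.000818 to 0.21). On adjusted p alone 7 genes were lower in 4T1 lungs and 1 higher (Ctss), beside 21.4% and 22.8% of all genes. Without 4T07 library 27, the lowest of its group, 5 genes were called in this comparison and 5 in that of 4T07 with control. Over all genes the calls went from 5167 to 5716 and from 6372 to 6831 in the same fits.

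Comparisons among control, 67NR and 4T1 lungs gave 0 calls among the 9 genes, beside 4.25% of all genes for 67NR against control, 4.61% for 4T1 against control and 5.02% for 4T1 against 67NR. DESeq2 also called 0 of the 9 in each of the 3. At an unadjusted p under 0.05 there were 1, 3 and 2 of the 9 genes, in that order. Ctss was lower in 67NR than in control lungs by less than the fold minimum (273, 273 and 252 CPM, log2 fold change -0.87 ± 0.16, adjusted p = 0.00273). In 4T1 against control lungs H2-DMb1 (-0.61 ± 0.16, adjusted p = 0.0239) and Ctss (-0.52 ± 0.16, adjusted p = 0.049) likewise passed on adjusted p and not on fold, with no overlap.

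Other cell types moved with the class II genes of 4T07 lungs. B cells, dendritic cells and macrophages present antigen on class II constitutively or after activation. The summed level of 8 B cell markers was 612 to 783 CPM in 4T07 lungs and 284 to 316 CPM in controls, with 5 of 8 called higher and 0 lower. Of 8 macrophage markers 3 were called higher, and of 10 dendritic cell markers 2, although the latter summed to 142 to 152 CPM against 158 to 173 CPM. In 4T1 lungs the B cell markers summed to 217 to 259 CPM, and 6 of 8 were lower than in 4T07 lungs. Neutrophil markers, which mark cells with little class II, summed to 24300 to 29300 CPM in 4T07 lungs, 11500 to 27300 CPM in 4T1 lungs and 228 to 291 CPM in controls. Alveolar type 2 markers summed to 3230 to 6510 CPM in 4T07 lungs and 22200 to 25100 CPM in controls. The part of any of these cell types in the class II values was not tested.

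In spleens the genes called against control were all lower, 4 of the 9 in 4T07, 4 in 4T1 and 2 in 67NR mice, beside 10.3%, 10% and 0.97% of all genes called lower. In 4T07 spleens H2-Ab1 was at 481, 470 and 437 CPM, H2-Eb1 at 348, 267 and 297 CPM and Ciita at 48.2, 48.3 and 39.5 CPM. In control spleens H2-Eb1 was at 957, 1120 and 773 CPM, and the values of H2-Ab1 and Ciita are given above. None of the 4T07 libraries came near a control library in any of the 3 genes. The genes fell by 1.39 ± 0.18 (H2-Ab1, adjusted p = 3.56e-05), 1.48 ± 0.21 (H2-Eb1, adjusted p = 8.21e-05) and 1.35 ± 0.20 (Ciita, adjusted p = 0.000111) on the log2 scale. H2-DMb1 also fell, from 201, 188 and 131 CPM to 82.6, 58.8 and 50.7 CPM (-1.28 ± 0.23, adjusted p = 0.000689). These 4 of the 9 genes were the ones called lower, beside 10.3% of all genes, and the call of each was kept under each alternative and with each library left out.

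In 4T1 spleens 4 of the 9 genes were called, all lower, beside 10% of all genes: H2-Ab1 and Ciita as before, and Cd74 and Ctss. Cd74 was at 226, 326 and 183 CPM, below the 3 control libraries although only just below the lowest, library 7 at 338 CPM. Its log2 fold change was -1.06 ± 0.29 (adjusted p = 0.011). Ctss was at 257, 280 and 223 CPM; every control library was at 528 CPM or more (-1.07 ± 0.18, adjusted p = 0.000299). All 4 changes were close to the thresholds. Cd74 lost its call without control library 9 (-0.80) or 4T1 library 42 (-0.92), H2-Ab1 without control library 8 (-0.99) or 4T1 library 42 (-0.98), Ciita without 4T1 library 40 (-0.89) and Ctss without control library 7 (-0.90). On adjusted p alone H2-Eb1 (-0.95 ± 0.21, adjusted p = 0.00249) and H2-DMb1 (-0.74 ± 0.23, adjusted p = 0.0237) passed in 4T1 spleens too, as did Ctss in 4T07 spleens (-0.93 ± 0.18, adjusted p = 0.00112), so the lists of called genes differ by the fold minimum for these genes. H2-DMa also passed on adjusted p in 4T1 spleens (-0.72 ± 0.28, adjusted p = 0.0646), with libraries that overlapped controls. Without 4T1 library 42 only 2 of the 9 genes were called, and without 4T1 library 41, the highest of its group for H2-Ab1, Cd74 and Ciita, 7 were. These counts were not set beside the calls over all genes in the same fits.

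H2-Aa did not share this pattern in 4T1 spleens. In 4T07 spleens H2-Aa was at 1350, 1040 and 737 CPM and overlapped controls (-0.70 ± 0.28, adjusted p = 0.0723), passing on adjusted p and not on fold. It was at 1430, 2250 and 1420 CPM in 4T1 spleens, within the control range of 1130 to 2330 CPM, and its log2 fold change was 0.09 ± 0.27 (adjusted p = 0.846). In 67NR spleens it was at 1050, 1130 and 838 CPM. The 4T1 libraries exceeded all of these, and H2-Aa was the 1 gene called higher in 4T1 than in 67NR spleens (1.10 ± 0.28, adjusted p = 0.00713; 10.3% of all genes), a call that was lost, at 0.76, when libraries were scaled to their totals without TMM (trimmed mean of M values) factors, and at 0.97 without 67NR library 18 and 0.88 without 4T1 library 41. Cd74 was at 642, 721 and 483 CPM in 67NR spleens, above each 4T1 library (-0.99 ± 0.29, adjusted p = 0.0166, just within the fold minimum). The invariant chain and the I-A alpha chain thus had opposite signs in this comparison.

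In 67NR spleens H2-Eb1 and H2-Aa were called. H2-Eb1 was at 442, 461 and 325 CPM and fell by 1.31 ± 0.21 on the log2 scale (adjusted p = 0.00912), with every 67NR library below every control library. H2-Aa fell by 1.012 ± 0.28 (adjusted p = 0.0582), with the highest 67NR library equal to the lowest control at 3 digits and its call lost without any of control libraries 7 and 8 or 67NR libraries 16 and 18 and when TMM factors were left out. These 2 of the 9 genes were called lower beside 0.97% of all genes. H2-Ab1 (-0.96 ± 0.18, adjusted p = 0.0131) and Ctss (-0.70 ± 0.18, adjusted p = 0.0436) passed on adjusted p and not on fold, neither overlapping. Cd74 was at 616 ± 121 against 611 ± 259 CPM (SD, n = 3), with a log2 fold change of -0.08 ± 0.28. H2-Oa was measurable in spleens, with 35, 16 and 9 counts in controls, 8, 2 and 18 in 67NR, 16, 13 and 2 in 4T07 and 6, 16 and 23 in 4T1 mice. The groups overlapped and it was not called. The comparisons of 4T07 with 67NR spleens and of 4T1 with 4T07 spleens gave 0 calls among the 9 genes, beside 14.7% and 2.33% of all genes. DESeq2 also gave 0 in each, and 3 genes in each had an unadjusted p under 0.05.

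Other class II genes and part of the B cell markers were also called lower in 4T07 and 4T1 spleens. All 4 of H2-Ea, H2-Eb2, H2-DMb2 and H2-Ob were called lower in 4T07 than in control spleens, with H2-Ob at 46.8 against 195 CPM (-1.89 ± 0.22, adjusted p = 1.53e-05), and 3 of the 4 in 4T1 spleens. Of 6 costimulation and receptor genes, 4 were lower in 4T07 spleens, namely Cd80, Cd86, Cd40 and Cd4. The 8 B cell markers summed to 717 to 786 CPM in 4T07 spleens, 479 to 805 CPM in 4T1 spleens, 2010 to 2220 CPM in 67NR spleens and 1660 to 2150 CPM in control spleens, with 4 and 6 called lower than control in 4T07 and 4T1 and 0 in 67NR. Neutrophil markers summed to 969 to 1720 CPM in control spleens and 13000 to 34100 CPM in 4T07 and 4T1 spleens. Ptprc, the common leukocyte antigen, was at 746 to 818 CPM in control, 490 to 556 CPM in 67NR, 262 to 292 CPM in 4T07 and 313 to 380 CPM in 4T1 spleens. Dendritic cell markers summed to 261 to 286 CPM in control and 214 to 243 CPM in 67NR spleens. In 4T07 and 4T1 spleens they summed to 117 to 164 and 127 to 170 CPM. Macrophage markers summed to 1840 to 2400 CPM in control and 1740 to 1840 CPM in 67NR spleens. Their sums were 1280 to 1420 CPM in 4T07 and 881 to 1240 CPM in 4T1 spleens. The part of these cell types in the class II values was not tested.

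In scaffolds few class II genes were called, and Cd74 and H2-Eb1 moved in opposite directions in 4T07 mice. Cd74 was at 203, 201 and 236 CPM in 4T07 scaffolds, 94.6, 95.8 and 84.0 CPM in 67NR scaffolds and 120, 85.7 and 101 CPM in control scaffolds. H2-Eb1 was at 79.9, 61.5 and 41.5 CPM in 4T07 scaffolds and 170, 108 and 123 CPM in controls. Each 4T07 library was above all control and 67NR libraries for Cd74 and below all controls for H2-Eb1. Against control, H2-Eb1 fell by 1.29 ± 0.32 on the log2 scale (adjusted p = 0.0143), while Cd74 had a log2 fold change of 0.92 ± 0.21 (adjusted p = 0.0106) and missed the fold minimum. H2-Aa was at 217, 285 and 137 CPM in 4T07 scaffolds, below the controls at 320, 318 and 297 CPM, but was not called (-0.69 ± 0.36, adjusted p = 0.249). Ctss also lay below all controls without a call (-0.34 ± 0.20, adjusted p = 0.324). Against 67NR, Cd74 rose by 1.16 ± 0.21 (adjusted p = 0.00377), and H2-Eb1 had -0.95 ± 0.31 (adjusted p = 0.0705) with libraries that overlapped.

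Of the 8 genes that could be tested in scaffolds, 1 was thus called lower and 0 higher in 4T07 against control (3.59% and 3.85% of all genes), and 1 higher and 0 lower in 4T07 against 67NR (2.82% and 3.03%). H2-Oa was left out because it had 8 counts in all 12 scaffolds together. With libraries scaled to their totals, Cd74 also passed the fold minimum against control. The remaining comparisons gave 0 calls among the 8, beside 0% of all genes for 67NR against control, 0.0226% for 4T1 against control, 0.0226% for 4T1 against 67NR and 1% for 4T1 against 4T07. In the last, DESeq2 called 1 of the 8, and 3 had an unadjusted p under 0.05. In the other 3 DESeq2 called 0, and 0, 2 and 2 had an unadjusted p under 0.05.

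The 4T1 scaffolds were uneven. H2-Aa was at 396, 780 and 219 CPM, H2-DMa at 66.8, 103 and 46.1 CPM and Cd74 at 156, 252 and 120 CPM. Library 35 was the highest and library 36 the lowest in all 3 genes, so that the 4T1 libraries were spread more widely than the controls, from below the control range to above it for H2-Aa. Cd74 had a log2 fold change of 0.65 ± 0.21 against control (adjusted p = 0.266). Marker levels in 4T07 scaffolds did not follow 1 cell type: macrophage markers summed to 3180 to 3870 CPM against 3390 to 3620 CPM in controls with 0 of 8 called, dendritic cell markers had 2 of 10 called lower although their sum was 729 to 948 against 551 to 693 CPM, B cell markers 2 of 8 higher, and neutrophil markers 9 of 9 higher. Ptprc was at 243 to 269 CPM in 4T07 scaffolds and 403 to 450 CPM in controls. The part of these cells in the values of Cd74 and H2-Eb1 was not tested.

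In primary tumors, the invariant chain and H2-DMb1 were highest in 4T07, the transactivator was lowest in 67NR, and the I-A alpha and I-E beta chains differed little. Ciita was at 32.3, 24.9 and 47.1 CPM in 4T07 tumors, 32.2, 17.8 and 22.0 CPM in 4T1 tumors and 9.94, 8.11 and 4.52 CPM in 67NR tumors. Cd74 was at 373, 245 and 396 CPM in 4T07, 185, 155 and 236 CPM in 4T1 and 124, 88.1 and 71.1 CPM in 67NR tumors. H2-DMb1 was at 351, 263 and 294 CPM in 4T07, 114, 94.1 and 132 CPM in 4T1 and 88.7, 71.1 and 54.8 CPM in 67NR tumors. The near-identical copy H2-DMb2 was at 13.4 to 57 CPM in 4T07, 11.9 to 26 CPM in 4T1 and 4.8 to 14.2 CPM in 67NR tumors, and because reads may be divided between the copies, values of H2-DMb1 in tumors and in the comparisons between tissues carry the same uncertainty as in lungs. The 3 tumor types did not overlap in Cd74 and H2-DMb1, and for Ciita the 67NR libraries lay apart from the other two.

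Against 67NR tumors, 4T07 tumors had higher Ciita (log2 fold change 1.95 ± 0.33, adjusted p = 0.000237), H2-DMb1 (1.84 ± 0.20, adjusted p = 4.19e-06) and Cd74 (1.60 ± 0.23, adjusted p = 7.20e-05). These 3 of the 9 genes were called higher and 0 lower, beside 17.2% and 11.8% of all genes. Ctss, at 1140, 663 and 918 CPM against 362, 442 and 416 CPM, had 0.90 ± 0.20 (adjusted p = 0.00187), and H2-Ab1, at 463, 331 and 449 CPM against 317, 199 and 144 CPM, had 0.67 ± 0.23 (adjusted p = 0.0295). Neither reached the fold minimum, and neither overlapped. H2-Aa stood at 647, 462 and 624 CPM in 4T07 and 800, 725 and 525 CPM in 67NR tumors and overlapped (-0.49 ± 0.19, adjusted p = 0.0528), as did H2-Eb1 (-0.18 ± 0.23) and H2-DMa (0.20 ± 0.17). H2-Oa was listed at 0 in all 67NR tumors and had at most 2 counts in a 4T07 and 5 in a 4T1 tumor, too few for a fold.

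Between 4T1 and 67NR tumors, Ciita was the 1 gene called, higher in 4T1 (1.48 ± 0.33, adjusted p = 0.00285; 11.6% of all genes). Cd74 had 0.84 ± 0.23 (adjusted p = 0.0121). Between 4T1 and 4T07 tumors, H2-DMb1 was the 1 gene called, lower in 4T1 (-1.36 ± 0.19, adjusted p = 0.00024; 4.79% of all genes), and the call was kept with each library left out. Cd74 had -0.76 ± 0.23 (adjusted p = 0.0344) and Ctss -0.62 ± 0.19 (adjusted p = 0.042), both short of the fold minimum and neither overlapping. Ciita had -0.47 ± 0.29 (adjusted p = 0.305), and its libraries overlapped.

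**Figure D2:**
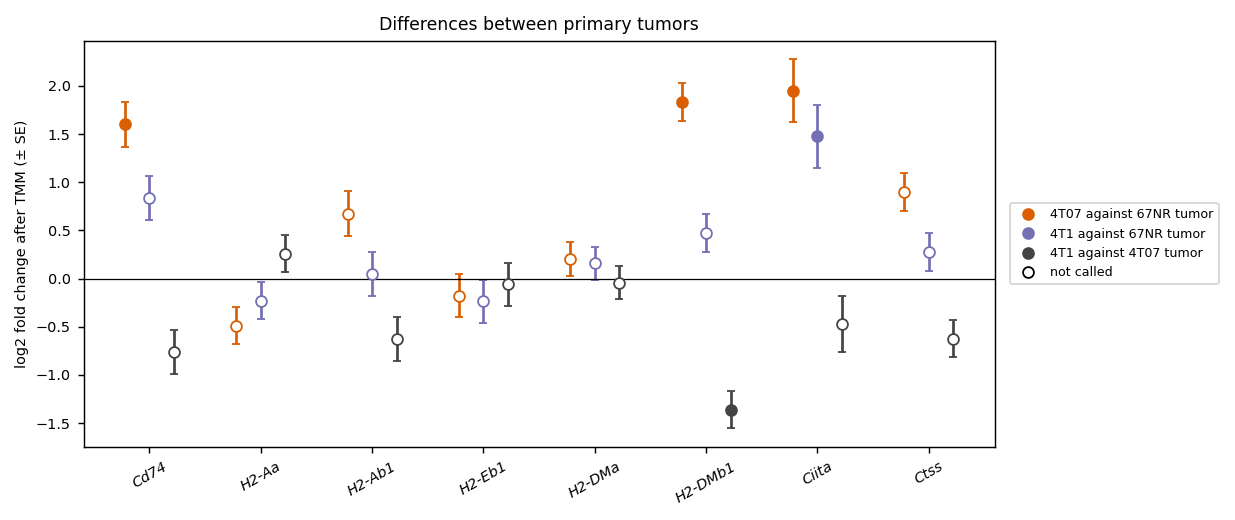
Log2 fold change between tumor types after TMM normalization (vertical axis, with SE) for 8 of the 9 genes, H2-Oa being left out for its low counts. Filled points passed both thresholds; Ciita, H2-DMb1 and Cd74 stand highest in 4T07 against 67NR (1.95, 1.84 and 1.60), while H2-Aa, H2-Eb1 and H2-DMa stay within 0.5 of zero in the 3 comparisons.

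Interferon gamma is a known inducer of Ciita, and genes of its axis varied among the tumors. Irf1, a transcription factor that acts on the Ciita promoter, was at 891 CPM in 4T07 against 143 CPM in 67NR tumors (2.39 ± 0.20, adjusted p = 3.34e-07) and at 373 CPM in 4T1 tumors. Ifng, the gene of interferon gamma itself, was at 4.84 CPM in 4T07 against 1.20 CPM in 67NR tumors (1.75 ± 0.48, adjusted p = 0.00938). These levels of Ifng were low, as 3 counts corresponded to 0.544 to 0.847 CPM in tumors. Against 4T07 tumors, Irf1 (-1.20 ± 0.19, adjusted p = 0.000559) and Ifng (-3.25 ± 0.53, adjusted p = 0.000714) were called lower in 4T1 tumors, and Jak2, a kinase of the interferon gamma receptor, was called higher (1.11 ± 0.18, adjusted p = 0.000685). Ciita was called higher in both 4T07 and 4T1 tumors than in 67NR tumors. With Ifng this low, the sizes of its changes were not set against those of Ciita. Among the 10 endosomal processing genes, 4 rose in 4T07 against 67NR tumors (Ctsl, Ctsz, Sppl2a and Marchf1) and 2 fell (Ifi30 and Cst3). Marchf1 encodes a ligase that removes class II molecules from the surface.

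Lymphocyte and dendritic cell markers also differed among the tumors. Of 8 B cell markers 6 were called higher in 4T07 than in 67NR tumors (summed level 110 to 336 against 77.2 to 89.5 CPM), of 6 T cell markers 5, and of 10 dendritic cell markers 3, while 1 of 8 macrophage markers was higher and 2 lower. The tumors also differed in stroma and epithelium, with 6 of 6 fibroblast and 5 of 6 epithelial markers called higher in 4T07 than in 67NR. Between 4T1 and 4T07 tumors 0 of 8 B cell, 0 of 6 T cell and 0 of 8 macrophage markers were called. Dendritic cell markers, however, summed to 222 to 248 CPM in 4T07, 80.3 to 121 CPM in 4T1 and 102 to 174 CPM in 67NR tumors. Macrophage markers summed to 2410 to 3150 CPM in 4T07 and 1940 to 2320 CPM in 4T1 tumors. The sums of B cell and T cell markers overlapped between 4T1 and 4T07. The part of interferon or of cell content in the class II values was not tested, and RNA of tumor cells and of infiltrating cells cannot be told apart in whole tumors.

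The differences from control were then compared between tissues with interaction terms in 1 model of all 45 libraries, at an adjusted p under 0.10. The response to 4T07 (4T07 minus control) was lower in spleen than in lung for 7 of the 9 genes, beside 10.6% of all genes. The difference was largest for H2-Eb1, at -2.32 ± 0.39 on the log2 scale (adjusted p = 1.79e-05), and second for H2-Ab1, at -1.96 ± 0.30 (adjusted p = 3.69e-06), setting aside H2-Oa with its few counts. H2-DMb1 and Ctss were the 2 genes not called, and both were lower than control in lung and in spleen. Compared with scaffold, the spleen response was lower for 4 genes (Cd74, H2-Ab1, H2-DMb1 and Ciita; 7.9% of all genes). The lung response was higher than that of scaffold for 4 genes (H2-Aa, H2-Ab1, H2-Eb1 and H2-DMa; 8.3% of all genes) and lower for 2 (H2-DMb1 and Ctss; 10.4%). The 6 calls of lung with scaffold fell to between 2 and 3 in 8 of the 12 fits that left out 1 library. Over all genes the calls in those 12 fits ran from 3952 to 5675, against 5168 with every library.

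For 4T1, the spleen response was lower than the lung response for 4 genes (Cd74, H2-Ab1, H2-DMa and Ciita; 7.94% of all genes) and lower than the scaffold response for 5 (Cd74, H2-Ab1, H2-DMa, H2-DMb1 and Ctss; 7.35%). Cd74 had -1.74 ± 0.35 in the second of these (adjusted p = 0.000854). The 4 calls of spleen with lung were reduced to 1 or 2 by leaving out any of 8 libraries, among them control spleen library 8 and 4T1 spleen libraries 40 and 42. Calls over all genes also fell without these named libraries, to 3311, 3162 and 2832 in that order, against 4285 with every library. With each library left out they ran from 2832 to 4578. The loss is therefore not read as particular to these genes. Lung and scaffold responses to 4T1 gave 0 calls (0.951% of all genes). DESeq2 gave 0 there too, and 1 gene had an unadjusted p under 0.05. The 4T07 and 4T1 contrasts of a tissue share their control libraries, so they are given side by side and not compared.

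**Figure D3:**
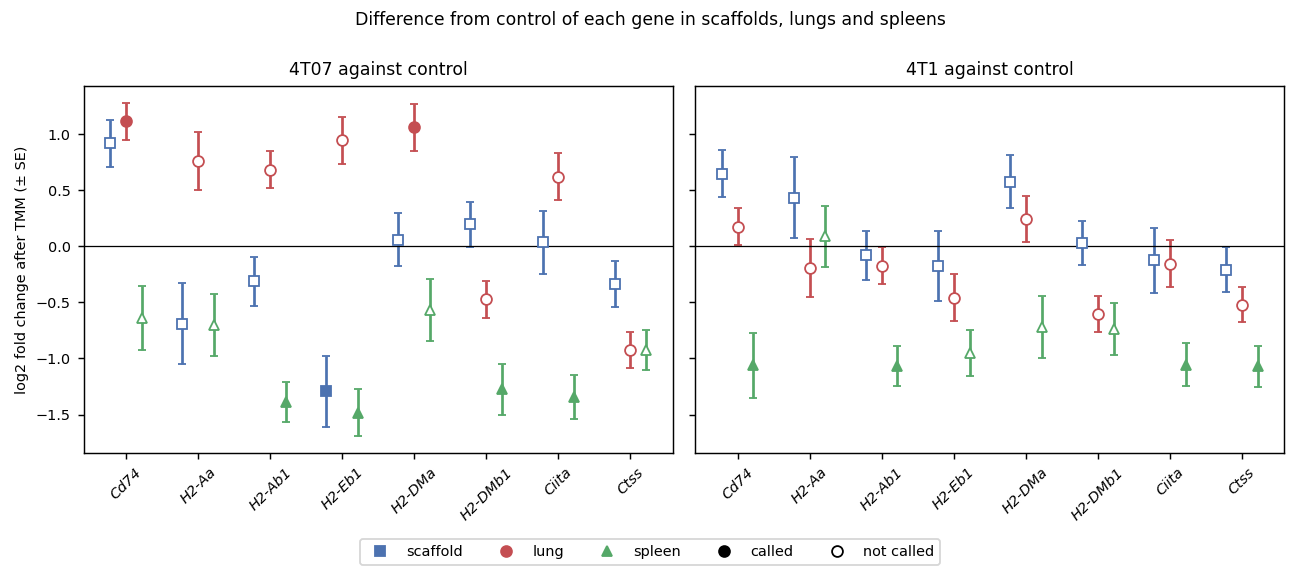
Log2 fold change from control after TMM normalization (vertical axis, with SE) in scaffolds (squares), lungs (circles) and spleens (triangles) of 4T07 mice (left) and 4T1 mice (right), for 8 of the 9 genes. Filled symbols passed both thresholds; in 4T07 mice 6 of the 8 genes lie above zero in lung while all 8 lie below zero in spleen, and Cd74 and H2-Eb1 part in scaffold (0.92 and -1.29).

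The difference between 4T1 and 4T07 mice was also compared between the tumor and the distant tissues. H2-DMb1 was lower in 4T1 in the tumor relative to scaffold (-1.15 ± 0.29, adjusted p = 0.0144), to lung (-1.26 ± 0.30, adjusted p = 0.00155) and to spleen (-1.81 ± 0.30, adjusted p = 5.26e-05). It was the only gene called relative to scaffold (2.51% of all genes lower), although 4 genes were called there under each of the 5 other analysis settings. Over all genes the calls under those settings ran from 1253 to 2029, against 1572 in the main fit. Relative to lung, 3 genes were higher (H2-Aa, H2-Eb1 and H2-Oa; 11.2% of all genes) and 2 lower (H2-DMb1 and Ctss; 12% of all genes). Relative to spleen, 2 were lower (H2-Ab1 and H2-DMb1; 2.93% of all genes).

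The 9 genes did not vary as a unit. After subtraction of each tissue's mean, log2 levels over the 45 libraries had Pearson correlations of 0.784 for H2-Aa with H2-Eb1 and 0.794 for H2-Ab1 with H2-Eb1, but 0.525 for H2-Aa with H2-Ab1, the chains of I-A. Ciita had 0.786 with H2-Ab1 and 0.184 with H2-Aa, Cd74 had 0.774 with H2-DMa, and Ctss had 0.72 with H2-DMb1. Cd74 and H2-Aa, in contrast, had 0.101, and the H2-DM subunits 0.334. Within tissues Cd74 and H2-Aa had 0.738 in lungs but 0.151 in scaffolds, -0.216 in spleens and -0.124 in tumors. Control spleen library 7 illustrates the split, with the lowest Cd74 of its group (338 CPM) and the highest H2-Aa (2330 CPM). H2-DMa and H2-DMb1 had -0.437 in lungs and 0.603 in spleens. The libraries share their conditions and differ in depth, and these correlations are given as descriptions.

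**Figure D4:**
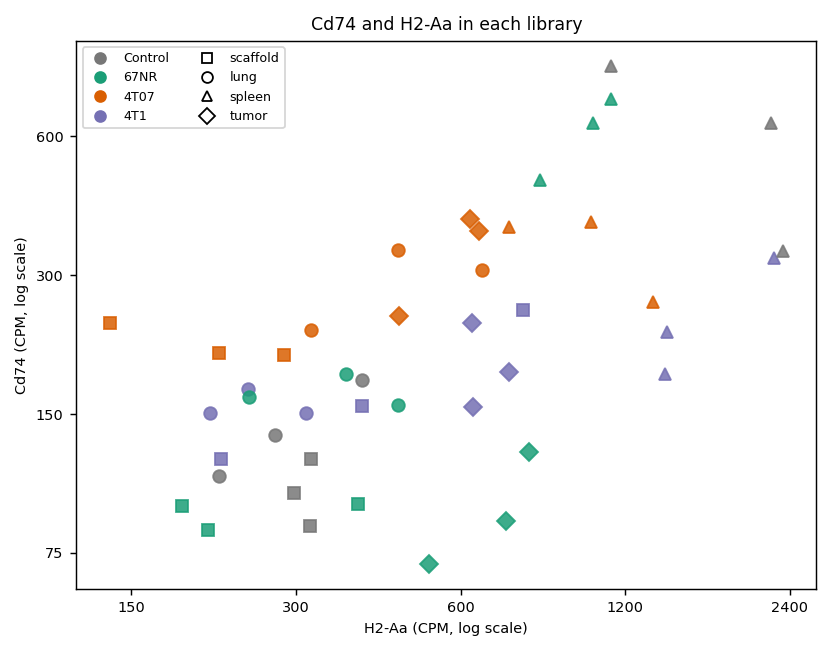
Cd74 against H2-Aa in each of the 45 libraries (CPM, both axes on a log scale), with colour for condition and shape for tissue. Lungs run along a rising line (Pearson r 0.738 of the log2 levels), whereas 4T07 scaffolds lie high for Cd74 at low H2-Aa and 67NR tumors low for Cd74 (71.1 to 124 CPM) at 525 to 800 CPM of H2-Aa.

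H2-O restrains H2-DM, so the ratio of H2-Oa to H2-DMa was tested between the groups of each tissue, as log2 of the CPM values with 1 CPM added, by an exact permutation test over all assignments of libraries to groups. The p was the share of assignments with a between-group sum of squares at least as large as that observed. It was 0.289 in scaffolds, 0.546 in lungs, 0.506 in spleens and 0.729 in tumors. After adjustment over the 4 tests it was 0.728, 0.728, 0.728 and 0.729. H2-Oa reached more than 5 counts in a library only in spleens and in 1 lung, where its counts ran from 2 to 35 in spleens. With so few counts and 1 CPM added, this test could register little of a difference in the ratio outside the spleen. Pooled counts of H2-Oa did differ between 4T1 and 4T07 lungs (ratio 0.0338, 95% interval 0.000818 to 0.21, counting error only). Library 26 held 14 of the 21 counts in 4T07 lungs. The mean CPM of H2-DMa in 4T1 lungs was 0.588 times that in 4T07 lungs. With 1 CPM added, a level of H2-Oa near 0 leaves the ratio to depend largely on H2-DMa. In 67NR tumors, where H2-Oa was at 0, it rested on H2-DMa alone. The p-values outside the spleen thus say little on the ratio. In spleens the mean log2 ratio ran from -5.91 ± 1.29 (67NR) to -4.58 ± 0.80 (4T1; SD, n = 3), and the libraries of these groups ran from -7.23 to -4.66 and from -5.11 to -3.66.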

How the data were processed

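RNA was sequenced from 45 tissue samples, 3 in each of 15 groups, with a 3′ tag kit carrying molecular identifiers. The submitters' processing notes name Trim Galore 0.5.0, STAR 2.6.0 and featureCounts. The genome build, annotation and use of the identifiers are not given in the sources used here. The deposited values are raw counts per gene symbol. The 120 symbols listed more than once were summed.

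Levels are CPM of the library total (3491888 to 8175380 counts). Each tissue was fitted with edgeR 4.0.16 (R 4.3.3; quasi-likelihood test, TMM) over genes with more than 10 counts in that tissue, with Benjamini-Hochberg adjustment over all of them. A gene was called at an adjusted p under 0.10 (0.05 in tumors) and a fold change over 2. Control tissues shared a fit of 9 samples, and interaction terms a fit of 45 with no fold minimum. On simulated counts for 4T1 against 4T07, between 98.5% and 100% of 200 changed genes were recovered in the 4 tissues, with 3.41% to 4.81% false calls. Recovery was not tested separately for the 9 genes, for changes near the fold minimum or for genes with few counts. Alternatives were DESeq2 1.42.0, its size factors, library totals, other count filters, only the compared groups, and each library left out.

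All 9 genes are named, and other genes by pathway and marker list. The genes and lists were chosen with earlier results of these data known. Where nothing says that samples came from separate mice, p-values measure only the spread between samples. Intervals cover counting error only. A listed pathway gene is not reported here.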

Additional observations from a re-analysis of the deposited data

Results flagged for a closer look

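Of 81 differences of a response between tissues, over 9 contrasts of the 9 genes, 34 passed an adjusted p under 0.10 in the interaction test (edgeR's quasi-likelihood test). Values are on the log2 scale, and none has been weighed for a cause. In 4T07 against control, the response in spleen minus that in lung was -1.64 for Cd74, -1.35 for H2-Aa, -1.96 for H2-Ab1, -2.32 for H2-Eb1, -1.51 for H2-DMa, -2.78 for H2-Oa and -1.85 for Ciita. The fitted values of H2-Oa depend on the handling of counts near 0 and are not bounds.

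For the same mice, spleen minus scaffold gave -1.55 for Cd74, -1.07 for H2-Ab1, -1.46 for H2-DMb1 and -1.38 for Ciita. Lung minus scaffold gave 1.35 for H2-Aa, 0.89 for H2-Ab1, 2.13 for H2-Eb1, 0.89 for H2-DMa, -0.77 for H2-DMb1 and -0.69 for Ctss.

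In 4T1 against control, spleen minus lung gave -1.24 for Cd74, -0.89 for H2-Ab1, -0.96 for H2-DMa and -0.90 for Ciita. Spleen minus scaffold gave -1.74 for Cd74, -1.02 for H2-Ab1, -1.33 for H2-DMa, -0.80 for H2-DMb1 and -0.90 for Ctss.

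In 4T1 against 4T07, tumor minus scaffold gave -1.15 for H2-DMb1. Tumor minus lung gave 1.19 for H2-Aa, 1.32 for H2-Eb1, -1.26 for H2-DMb1, 4.92 for H2-Oa and -1.05 for Ctss. Tumor minus spleen gave -0.87 for H2-Ab1 and -1.81 for H2-DMb1.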

How the results depend on the processing

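Of the 4046 member values computed under the alternatives, 119 had another sign, and 0 of these were called. With libraries scaled to their totals the median log2 fold change of all genes was -0.414 in 4T1 against 67NR spleens and 0.406 in 4T07 against 67NR tumors, where it was -0.066 and 0.159 with TMM. Among the named calls within tissues, 146 of 153 values kept their side of the thresholds under other settings and 7 did not, and 137 of 156 did with a library left out and 19 did not. Beside the calls named above, H2-DMa in 4T07 against control lungs was at 1.00 with library totals, and H2-Eb1 in 4T07 against 67NR lungs at 0.85 with library totals and 0.99 with no count filter. The causes were not tested.

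On adjusted p alone, without the fold minimum, the counts of members called (with the share of all genes) were 2 (17.7%) for 4T07 against control and 2 (14.7%) for 4T07 against 67NR scaffolds. They were 1 (12.8%), 9 (50.2%) and 2 (11.8%) for 67NR, 4T07 and 4T1 against control lungs, 7 (50.4%) for 4T07 against 67NR and 8 (44.2%) for 4T1 against 4T07 lungs. They were 4 (6.23%), 6 (32.5%) and 7 (35.2%) for 67NR, 4T07 and 4T1 against control spleens, and 3 (27.2%) and 3 (36.1%) for 4T07 and 4T1 against 67NR spleens. In tumors they were 5 (41.5%), 2 (31.5%) and 3 (14.7%) for 4T07 against 67NR, 4T1 against 67NR and 4T1 against 4T07. With library totals the counts were 2 (4T07 against control scaffold), 1 (67NR against control spleen), 2 (4T07 against 67NR spleen), 3 (4T1 against 67NR tumor) and 4 (4T1 minus 4T07, tumor minus scaffold). That last count was also 4 by DESeq2, with DESeq2 size factors, with no count filter and with at least 10 counts in every sample. By DESeq2, 1 member was called in 4T1 against 4T07 scaffolds and 2 in 4T1 against 67NR spleens, the latter also 2 with DESeq2 size factors, with no filter and with only the compared groups. With no filter 2 were called in 4T1 against 4T07 scaffolds. With at least 10 counts in every sample, where fewer genes were tested, 1 was called in each of 4T1 against 4T07 scaffolds, 4T1 against 4T07 lungs and 4T07 against 67NR spleens.

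With each library left out, counts in scaffolds ran from 1 to 2 (4T07 against control), 1 to 2 (4T07 against 67NR) and 0 to 1 (4T1 against 4T07); in lungs from 0 to 1 (67NR against control), 2 to 5 (4T07 against control), 1 to 4 (4T07 against 67NR) and 2 to 5 (4T1 against 4T07); in spleens from 1 to 3, 4 to 5 and 2 to 7 (67NR, 4T07 and 4T1 against control), 0 to 1 (4T07 against 67NR) and 1 to 2 (4T1 against 67NR); in tumors from 3 to 4 (4T07 against 67NR) and 1 to 2 (4T1 against 67NR); and between control scaffold and lung from 1 to 2. Interaction counts ran from 5 to 8, 4 to 5 and 2 to 6 (4T07, spleen minus lung, spleen minus scaffold and lung minus scaffold), 1 to 4 and 4 to 6 (4T1, spleen minus lung and spleen minus scaffold), and 1 to 4, 3 to 6 and 1 to 2 (4T1 minus 4T07, tumor minus scaffold, lung and spleen). Calls over all genes also changed with a library left out. For lung minus scaffold in 4T07 they ran from 3952 to 5675, against 5168 with every library. For spleen minus lung in 4T1 they ran from 2832 to 4578, against 4285 with every library. No paired analysis was possible because the groups share no replicate numbers. Depth limits H2-Oa, with 8 counts in all scaffolds and 13 in all tumors.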

Other observations

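Cst3 encodes cystatin C, an inhibitor of cathepsins including cathepsin S. Its level ran from 300 to 495 CPM in 4T07 scaffolds and from 1080 to 1870 CPM in control scaffolds, with a log2 fold change of -2.05 ± 0.30 (adjusted p = 0.000866). In 4T07 lungs Cst3 ran from 122 to 202 CPM against 479 to 1160 CPM in controls (-2.42 ± 0.29, adjusted p = 1.04e-06). Ctss was lower in the same lungs.

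The mean of the standardised log2 levels of the 9 genes was taken as their common pattern. The genes most like it, among 12039 genes with a mean of at least 5 CPM over 45 samples, were Art2a (Pearson r 0.905), E230029C05Rik (0.895), Cd209b (0.894), Icos (0.887) and Cnp (0.872). After subtraction of tissue means, from the pattern too, they were Cd3g (0.807), Cd28 (0.799), Ubd (0.793), Igf1 (0.791) and Gm8369 (0.789). Cd3g and Cd28 mark T cells. Samples share tissue, condition and depth, and these values are descriptions.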
